A study of Mus musculus with 26 samples.

Results

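Newly made secretory proteins enter the endoplasmic reticulum through the Sec61 channel and leave it in vesicles that carry them to the Golgi apparatus. The COPII coat, whose assembly is started by the GTPase Sar1, buds these vesicles at exit sites. Tethers, Rab GTPases and SNARE proteins then dock and fuse them, and the COPI coat and the KDEL receptors return escaped resident proteins to the endoplasmic reticulum. Acinar cells of the lacrimal gland, which make the protein of tears, rely on this route. Expression of 37 genes of the route was followed over age in the lacrimal glands of a mouse model of Sjögren's syndrome. The genes were chosen by name as a pathway list, and 36 of them had a probe set that names that gene alone. Each was represented by the probe set of that kind that was brightest on average across the arrays. A gene entered the tests if that probe set lay above the median of its array on at least 4 arrays, which held for 35 of the 37 members and for 12377 of the 18194 genes with a probe set.

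The data were 26 Affymetrix arrays of lacrimal gland RNA from male C57BL/6.NOD-Aec1Aec2 mice, which carry the NOD-derived regions Idd3 (Aec1, chromosome 3) and Idd5 (Aec2, chromosome 1) in the C57BL/6 background. The design has 4 arrays from mice aged 4 weeks, 6 each from ages 8 and 12 weeks, and 5 each from ages 16 and 20 weeks. The submitters place 4 weeks before disease, 12 weeks at the first entry of leukocytes and 20 weeks at the start of secretory dysfunction. All groups carry both regions, so age and disease stage cannot be told apart here. The labels call the arrays biological replicates without saying whether each is 1 animal, and the p-values reflect only how far these samples vary.

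All values are deposited log2 expression, and a level of 1 probe set is not compared with that of another. Tests are contrasts and F tests of limma over all 26 arrays with Benjamini-Hochberg adjustment over the 12377 genes, called at an adjusted p under 0.05. Changes are later minus earlier age on the log2 scale. A mean under 4.04, within 1 log2 unit of the typical array median, is called near background. By this measure the chosen probe sets of Tmed2 (3.31 to 3.48 over the age means), Sec24b (3.58 to 3.87) and Gosr1 (2.43 to 2.51) were near background at every age, and Sec23a lay at 3.94 to 4.44. Gosr1, an early Golgi SNARE, is the member with a probe set of its own that did not enter the tests. Sec61g, the small gamma subunit of the channel, was seen only through a probe set shared with Gm11575 and Gm10177, whose means were 9.62, 10.95, 11.09, 10.13 and 9.77 from 4 to 20 weeks.

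A pair of arrays stood apart from the other 24. The 35 members averaged 6.21 on 20 weeks replicate 1 and 7.80 on 16 weeks replicate 4, while the remaining 24 arrays lay between 8.53 and 9.91. The same arrays had the narrowest spread of log2 values over all probe sets, with SDs of 1.36 and 1.68 against 1.78 to 2.27, and the lowest means of 7 acinar markers, at 9.14 and 8.67 against 10.52 to 11.56. Actin 3′ signal minus actin 5′ signal, a sign of RNA integrity and of labelling length, was 4.97 and 5.71 on them and 1.87 to 5.60 elsewhere. Results are therefore given with all arrays and without these 2.

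**Figure D1:**
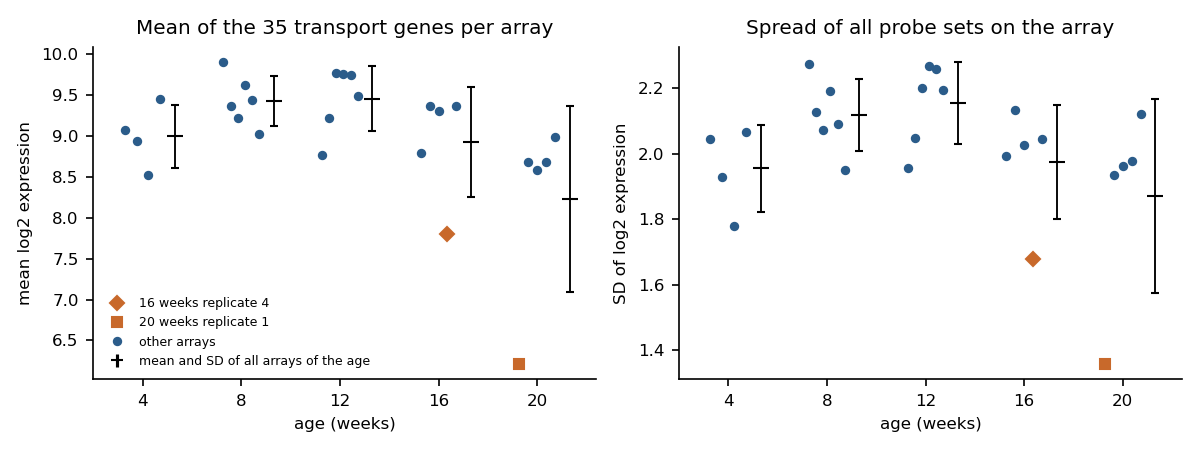
Mean log2 expression of the 35 members on each array (left) and SD of all log2 values on the same array (right) by age in weeks, with 1 point per array and the mean and SD of each age in black. Member means lay between 8.53 and 9.91 on 24 arrays and were lowest on 20 weeks replicate 1 (6.21) and 16 weeks replicate 4 (7.80), where the SD of the array was lowest too.

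Most of the transport genes had their lowest mean at 20 weeks. Averaged over the members, arrays read 9.0 ± 0.38 at 4 weeks (SD, n = 4), 9.43 ± 0.31 at 8 weeks (n = 6) and 9.46 ± 0.40 at 12 weeks (n = 6). They read 8.92 ± 0.67 at 16 weeks and 8.23 ± 1.14 at 20 weeks (n = 5 each). Without the 2 arrays they read 9.21 ± 0.28 at 16 weeks and 8.73 ± 0.18 at 20 weeks. Of the 35 members, the highest mean was that of 12 weeks in 16, of 8 weeks in 12, of 16 weeks in 5 and of 4 weeks in 2, and 29 had their lowest mean at 20 weeks. When the 2 arrays were left out, the highest mean was that of 12 weeks in 15 members, of 16 weeks in 10, of 8 weeks in 8 and of 4 or 20 weeks in 1 each, while 22 were lowest at 20 weeks and 11 at 4 weeks. In whole glands, fewer cells of a type and less RNA per cell cannot be told apart.

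Over the 5 ages, 8 of the 35 members changed, where 14.9% of all genes tested did. Adjusted p ran from 0.000574 for Uso1 to 0.0378 for Sar1a, and the next member, Golga2, was at 0.051. They were Uso1 and Gorasp2 of the Golgi entry face, Sec13, Sec24d and Sar1a of the COPII machinery, the SNARE Sec22b, the cargo receptor subunit Mcfd2 and the retrieval receptor Kdelr1. With 24 arrays, 13 members changed, against 21% of all genes, among them all 8 of these. In fits that left out 1 array, the Sar1a call held in 14 of 26, and each of the others in all 26.

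The steps between successive ages were mostly below the threshold. From 4 to 8 weeks the median member change was 0.44, against 0.03 over all genes, and 4 of 35 members had a lower mean at 8 weeks. None was called, where 1.36% of genes were, and 2 members had an unadjusted p under 0.05. Without the 2 arrays, which lie at other ages and enter here through the shared estimate of the spread and the genes kept, Mcfd2 and Sar1a were called higher at 8 weeks, as were 4.28% of genes. From 8 to 12 weeks 0 members were called by limma and 0 had an unadjusted p under 0.05, with a median of 0.07 and 0.0162% of genes called. At 16 against 12 weeks the median was -0.48, and -0.28 without the 2 arrays, and Uso1 was called lower, where 2.98% of genes were called and 2.63% were lower. Mcfd2 joined it when the 2 arrays were left out, where 2.72% of genes were lower. At 20 against 16 weeks the median was -0.74, and -0.43 without the 2 arrays or -0.23 without 20 weeks replicate 1 alone. None of the members was called by limma there, where 0.0162% of genes were, and 8 had an unadjusted p under 0.05.

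Set against 8 weeks, the age sampled before the one at which the submitters place leukocyte entry, 20 weeks gave more calls among the members than any of the other 5 contrasts. Of the 35 members, 16 were lower at 20 weeks and 0 were higher, where 25.2% of all genes were called, 14.7% lower and 10.6% higher. The median member change was -1.21, against -0.02 over all genes. With a stricter filter on low values, which kept 8031 genes, 22.3% of genes were called lower and the median over all genes was -0.39. The 16 were Uso1, Gorasp2, Sec13, Sec24c, Sec24d, Sec23b, Sec31a, Sar1a, Copb1, Copz1, Arcn1, Sec22b, Gosr2, Mcfd2, Kdelr1 and Sec61b. Without the 2 arrays 14 were lower, 13 of them from this list and Lman1 in addition, where 10.2% of genes were lower, and the median was -0.64. Leaving out 20 weeks replicate 1 alone left 7, where 7.82% of genes were lower. Leaving out 1 array of 8 weeks left 8 without replicate 1, 8 without replicate 4 and 10 without replicate 5, where 8.3%, 9.1% and 11.1% of genes were lower. Every 20-week array lay below every 8-week array for 11 of the 35 members, and for 6.55% of all genes. Without 20 weeks replicate 1 this held for 11 members and 7.19% of genes.

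**Figure D2:**
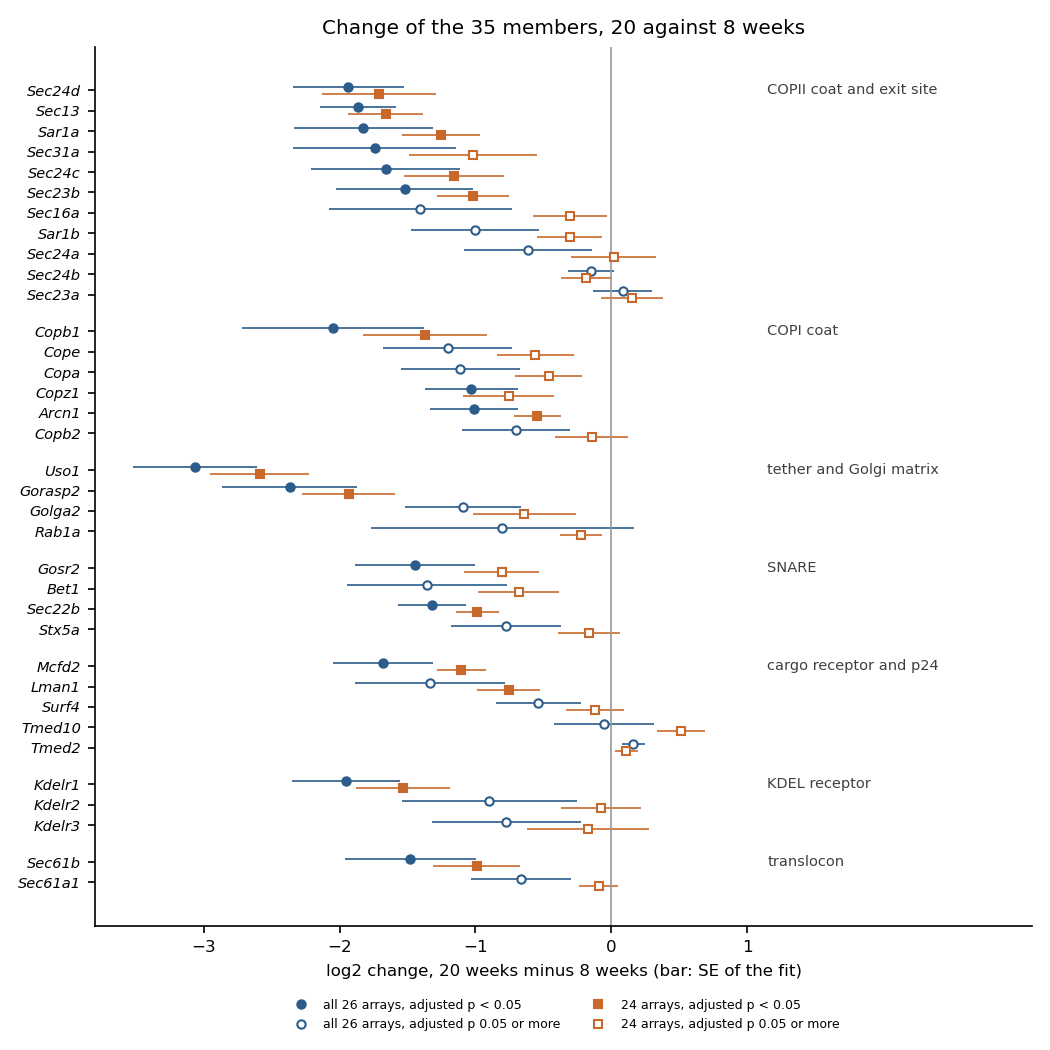
Log2 change of each of the 35 members at 20 weeks minus 8 weeks, with the SE of the fit, grouped by role, from all 26 arrays (circles) and from 24 arrays (squares). Filled symbols mark an adjusted p under 0.05, and all 16 filled circles and 14 filled squares lie below 0.

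The spread of the array moved with this result. The SD of all log2 values averaged 1.87 ± 0.30 at 20 weeks and 2.12 ± 0.11 at 8 weeks, and with that SD as a covariate 7 of the 16 remained called, the median member change was -0.20 and 4.49% of genes were called lower. The 3′ minus 5′ actin difference averaged 3.89 ± 0.89 at 20 weeks and 2.63 ± 0.50 at 8 weeks, and with it as a covariate 7 of the 16 remained called, where 4.15% of genes were lower. The same 7 genes were called under both covariates and in each of the 26 fits that left out 1 array: Uso1, Gorasp2, Sec13, Sec24d, Sec22b, Mcfd2 and Kdelr1. After quantile normalization 12 of the 16 remained called lower, Sec22b was not among them, and Tmed10 was called higher by 0.67, where 9.91% of genes were lower and 11.8% higher. With only the 11 arrays of the 2 ages in the fit, 6 of the 16 remained called, where 7.61% of genes were lower, and Mcfd2 missed the threshold.

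Uso1, the coiled-coil tether that captures vesicles arriving from the endoplasmic reticulum, changed most. It read 10.47, 10.62, 9.26 and 11.12 at 4 weeks, 10.50 to 11.23 with a median of 10.80 at 8 weeks and 9.44 to 11.49 with a median of 11.02 at 12 weeks. It read 8.52, 9.53, 9.45, 7.80 and 9.68 at 16 weeks and 5.83, 8.03, 7.90, 8.19 and 8.77 at 20 weeks. Levels at the first 3 ages overlapped, and all 5 arrays at 20 weeks lay below every array of 4, 8 and 12 weeks. Uso1 fell by 3.07 (SE 0.46, adjusted p = 0.000478) at 20 against 8 weeks, an 8.38-fold lower level, and by 2.62 (SE 0.51, adjusted p = 0.00823) at 20 against 4 weeks. At 16 against 12 weeks it fell by 1.81 (SE 0.46, adjusted p = 0.0379), a call that was lost without 12 weeks replicate 3, 4, 5 or 6 or without 16 weeks replicate 1, 3 or 4, where the highest adjusted p was 0.107. Without the 2 arrays the change at 20 against 8 weeks was -2.59 (adjusted p = 0.000171).

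Gorasp2 helps to stack and link Golgi cisternae. It read 11.12, 11.74, 10.58 and 12.56 at 4 weeks, 11.69 to 12.39 with a median of 11.87 at 8 weeks and 10.87 to 12.16 with a median of 11.81 at 12 weeks. It read 10.50, 11.26, 10.38, 8.07 and 10.54 at 16 weeks and 7.86, 9.87, 9.64, 9.54 and 11.08 at 20 weeks. Every 20-week array lay below every 8-week array, and the 2 arrays that stood apart were the lowest at their ages. Gorasp2 fell by 2.37 (SE 0.50, adjusted p = 0.00375) at 20 against 8 weeks, 5.17-fold lower, and the change was -1.93 (adjusted p = 0.00116) without the 2 arrays. Golga2, a Golgi matrix protein that binds Uso1, averaged 4.06 ± 1.12 at 20 weeks and 5.15 ± 0.54 at 8 weeks (SD, n = 5 and 6), a change of -1.09 (SE 0.43, adjusted p = 0.0615) that missed the threshold. Rab1a, the GTPase that recruits Uso1 to membranes, read 9.12, 12.10, 12.22, 11.75 and 11.97 at 20 weeks, against 11.89 to 12.53 with a median of 12.25 at 8 weeks. Its change of -0.80 (SE 0.97, adjusted p = 0.536) missed the threshold, and its 16-week arrays read 12.43, 12.58, 12.51, 4.62 and 12.49, with replicate 4 far below the other 4.

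**Figure D3:**
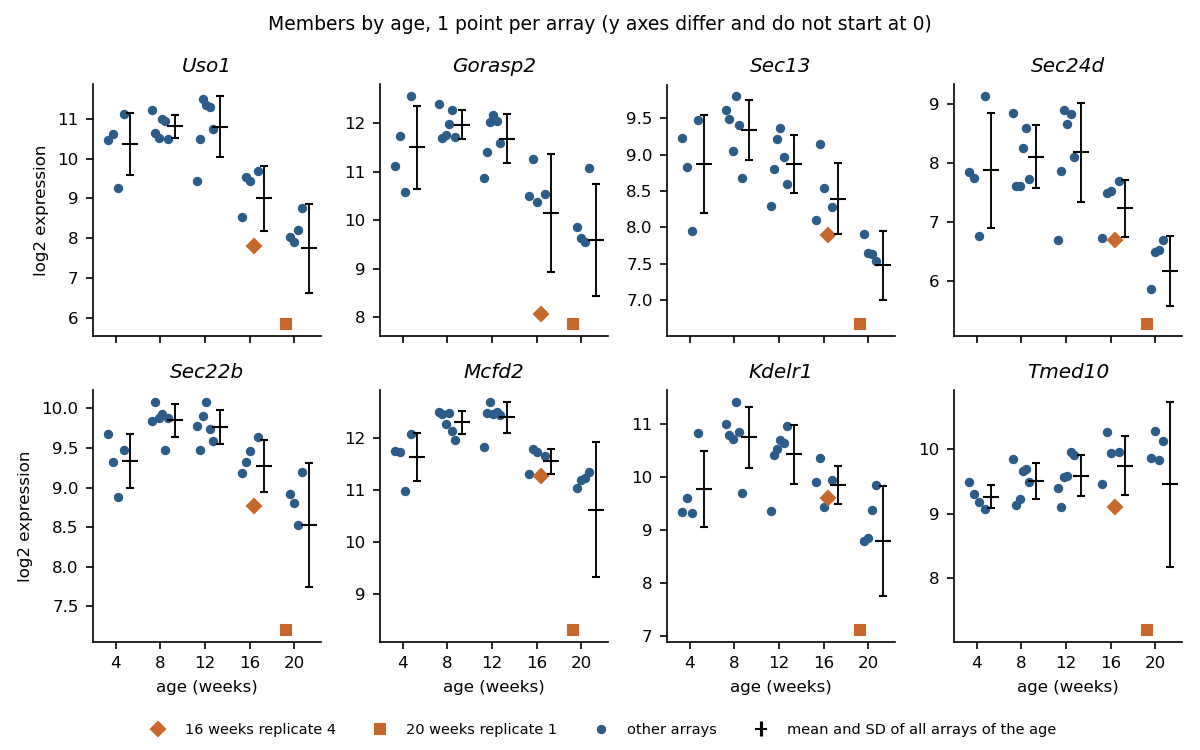
Log2 expression of 8 members on each of the 26 arrays by age in weeks, with the mean and SD of all arrays of an age in black. In 7 of the panels the 20-week points lie low, at 5.83 to 8.77 for Uso1 against 10.50 to 11.23 at 8 weeks, and Tmed10, the member with the smallest F, shows 4 of 5 points at 20 weeks between 9.83 and 10.27.

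Of the 11 COPII coat and exit site members, 6 fell at 20 against 8 weeks and 0 rose, where 14.7% of all genes were lower. Their median change was -1.52, with a range from -1.94 to 0.08. Sec13, which builds the outer cage together with Sec31 and is also a nuclear pore subunit, read 9.23, 8.84, 7.95 and 9.48 at 4 weeks, 8.68 to 9.81 with a median of 9.45 at 8 weeks and 8.30 to 9.37 with a median of 8.88 at 12 weeks. It read 8.10, 9.15, 8.55, 7.90 and 8.28 at 16 weeks and 6.66, 7.92, 7.64, 7.63 and 7.54 at 20 weeks. Its 20-week arrays lay below all arrays at 4 and 8 weeks. Sec13 fell by 1.86 (SE 0.28, adjusted p = 0.000478) at 20 against 8 weeks and by 1.40 (SE 0.31, adjusted p = 0.0218) at 20 against 4 weeks. The call against 4 weeks was lost without 4 weeks replicate 1, 2 or 4, where the highest adjusted p was 0.124. Sec31a, the other cage protein, read 3.69, 7.09, 6.74, 7.66 and 7.73 at 20 weeks, against 7.40 to 9.58 with a median of 8.18 at 8 weeks, so the ages overlapped, and its change of -1.74 (SE 0.60, adjusted p = 0.0387) became -1.02 (adjusted p = 0.13) without the 2 arrays.

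The Sec24 subunits of the inner coat select cargo. Sec24d read 7.85, 7.73, 6.76 and 9.13 at 4 weeks, 7.61 to 8.84 with a median of 7.99 at 8 weeks and 6.69 to 8.90 with a median of 8.38 at 12 weeks. It read 6.73, 7.49, 7.52, 6.68 and 7.68 at 16 weeks and 5.26, 5.86, 6.49, 6.52 and 6.70 at 20 weeks. Its 20-week arrays lay below every array at 4 and 8 weeks. Sec24d fell by 1.94 (SE 0.41, adjusted p = 0.00388) at 20 against 8 weeks and by 1.70 (SE 0.45, adjusted p = 0.0484) at 20 against 4 weeks. The 4-week comparison kept its call in 5 of 26 fits that left out 1 array, and its adjusted p was 0.051 without the 2 arrays. Sec24c read 5.61, 7.64, 7.65, 8.14 and 9.07 at 20 weeks, against 8.63 to 9.88 with a median of 9.33 at 8 weeks, with replicate 5 inside the 8-week range, and changed by -1.66 (SE 0.55, adjusted p = 0.0338). Sec24a read 4.28, 7.20, 7.46, 7.52 and 7.55 at 20 weeks, against 6.40 to 8.07 with a median of 7.56 at 8 weeks, and its change of -0.61 (SE 0.47, adjusted p = 0.329) became 0.02 (adjusted p = 0.972) without the 2 arrays. Sec24b, near background, averaged 3.58 ± 0.09 at 20 weeks and 3.73 ± 0.42 at 8 weeks.

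The inner coat partner Sec23b read 7.62, 10.07, 9.92, 10.19 and 10.31 at 20 weeks, against 10.71 to 11.84 with a median of 11.00 at 8 weeks, and its change was -1.52 (SE 0.50, adjusted p = 0.0343). Its paralogue Sec23a averaged 4.15 ± 0.20 at 20 weeks and 4.07 ± 0.41 at 8 weeks, close to background, with a change of 0.08 (SE 0.22, adjusted p = 0.784). Of the Sar1 GTPases, Sar1a read 5.43, 8.18, 7.71, 8.39 and 8.84 at 20 weeks, against 8.66 to 10.18 with a median of 9.62 at 8 weeks. Sar1a also changed over the 5 ages (adjusted p = 0.0378), with 7.99 to 8.96 at 4 weeks, all but 1 of those arrays at or below the highest 20-week array of 8.84. The call over the 5 ages held in 14 of 26 fits that left out 1 array and under 8 of 13 other settings. It was lost with the array spread or the actin difference as a covariate, among others. Sar1a fell by 1.83 (SE 0.51, adjusted p = 0.0188) at 20 against 8 weeks, a call lost without 20 weeks replicate 1 (adjusted p = 0.0587). Sar1b read 7.60, 11.25, 11.44, 10.78 and 10.89 at 20 weeks, against 10.87 to 11.99 with a median of 11.35 at 8 weeks, and its change of -1.0 (SE 0.47, adjusted p = 0.11) missed the threshold. Sec16a, the exit site scaffold, read 3.46, 8.88, 8.38, 8.89 and 9.68 at 20 weeks, against 8.86 to 9.84 with a median of 9.26 at 8 weeks, with 1 array far below the rest, and its change of -1.41 (SE 0.67, adjusted p = 0.119) became -0.31 (adjusted p = 0.442) without the 2 arrays. A second probe set of Sec16a, not tested, averaged 5.58 at 20 weeks and 8.00 at 8 weeks. That difference of -2.42 was -1.98 without 20 weeks replicate 1.

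The 6 COPI members all encode subunits of the coatomer. Of these, 3 fell at 20 against 8 weeks and 0 rose, where 14.7% of all genes were lower. Their changes ran from -2.05 to -0.70 with a median of -1.07. Copb1 read 4.61, 8.07, 8.10, 7.42 and 8.46 at 20 weeks, against 8.76 to 10.22 with a median of 9.47 at 8 weeks, without overlap, and fell by 2.05 (SE 0.67, adjusted p = 0.0327). Copz1 read 7.09, 8.42, 7.86, 8.62 and 8.99 at 20 weeks, against 8.54 to 10.32 with a median of 9.11 at 8 weeks, with overlap, and its change of -1.03 (SE 0.34, adjusted p = 0.035) became -0.76 (adjusted p = 0.118) without the 2 arrays. Arcn1 averaged 10.13 ± 1.06 at 20 weeks and 11.14 ± 0.22 at 8 weeks, without overlap, and fell by 1.01 (SE 0.33, adjusted p = 0.0317). Copa, Cope and Copb2 missed the threshold, with changes of -1.11, -1.21 and -0.70. The Copb1, Copz1 and Arcn1 calls were each lost when 20 weeks replicate 1, 8 weeks replicate 1, 4 or 5, or 1 more 20-week array was left out, with adjusted p up to 0.119.

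The SNARE members drive fusion of vesicles with early Golgi membranes. Of the 4 tested, Sec22b and Gosr2 fell at 20 against 8 weeks and 0 rose, where 14.7% of all genes were lower. Sec22b, the SNARE carried on vesicles between the endoplasmic reticulum and Golgi, read 9.68, 9.32, 8.88 and 9.47 at 4 weeks, 9.47 to 10.09 with a median of 9.88 at 8 weeks and 9.48 to 10.09 with a median of 9.76 at 12 weeks. It read 9.18, 9.32, 9.46, 8.76 and 9.64 at 16 weeks and 7.20, 8.91, 8.81, 8.53 and 9.20 at 20 weeks. The 20-week arrays lay below all arrays at 8 weeks. Sec22b fell by 1.32 (SE 0.25, adjusted p = 0.00197) at 20 against 8 weeks, and the change was -0.99 (adjusted p = 0.000457) without the 2 arrays. Gosr2 read 4.73, 7.69, 7.99, 7.74 and 8.26 at 20 weeks, against 8.16 to 9.41 with a median of 8.65 at 8 weeks, and its change of -1.44 (SE 0.44, adjusted p = 0.0266) became -0.81 (adjusted p = 0.0527) without the 2 arrays. Bet1 and Stx5a, which form SNARE complexes with these proteins, had changes of -1.36 (SE 0.59, adjusted p = 0.0878) and -0.77 (SE 0.41, adjusted p = 0.151), both short of the threshold.

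Of the 5 cargo receptor and p24 members, 1 fell at 20 against 8 weeks, where 14.7% of all genes were lower. The median change of the 5 was -0.54. Mcfd2, the calcium-binding partner of the lectin Lman1 in a receptor that exports coagulation factors and other glycoproteins, read 11.75, 11.72, 10.98 and 12.07 at 4 weeks, 11.95 to 12.49 with a median of 12.36 at 8 weeks and 11.82 to 12.69 with a median of 12.47 at 12 weeks. It read 11.30, 11.78, 11.72, 11.27 and 11.65 at 16 weeks and 8.31, 11.03, 11.19, 11.22 and 11.34 at 20 weeks. All 16-week arrays lay below all 12-week arrays, and all 20-week arrays below all 8-week arrays. Mcfd2 fell by 1.68 (SE 0.37, adjusted p = 0.00491) at 20 against 8 weeks and the change was -1.10 (adjusted p = 0.000548) without the 2 arrays, where it was also called lower at 16 against 12 weeks (adjusted p = 0.0191). Lman1 read 7.30, 10.04, 10.01, 10.30 and 10.41 at 20 weeks, against 10.62 to 11.56 with a median of 10.89 at 8 weeks, without overlap, and its change of -1.33 (SE 0.55, adjusted p = 0.0758) became -0.76 (adjusted p = 0.0328) without the 2 arrays, past the threshold. The export receptor Surf4 missed the threshold, with a change of -0.54 (SE 0.31, adjusted p = 0.195). Its other own probe sets, not tested, were all lower by more, with differences from -2.50 to -0.76. Without 20 weeks replicate 1 these ran from -1.81 to -0.41, against -0.12 on the chosen set.

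Tmed10, a p24 protein that sorts cargo into vesicles, had the smallest F of the members. It read 9.46, 10.25, 9.93, 9.10 and 9.94 at 16 weeks and 7.20, 9.85, 10.27, 9.83 and 10.11 at 20 weeks, against 9.13 to 9.85 with a median of 9.57 at 8 weeks. The array at 7.20 was 20 weeks replicate 1, and 3 of the other 4 arrays lay above the highest 8-week array, with replicate 4 at 9.83 just under it. Its change at 20 against 8 weeks was -0.05 (SE 0.37, adjusted p = 0.925), and 0.51 (adjusted p = 0.0523) without the 2 arrays. At 20 against 4 weeks without the 2 arrays Tmed10 was called higher by 0.76 (adjusted p = 0.0156), the 1 member called higher among 4 called there, where 5.85% of genes were called higher. The partner p24 protein Tmed2 was near background on its own probe set, and the 6 probe sets it shares with Gm10698 had age means from 3.44 to 12.81 and were all lower at 20 than at 8 weeks.

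Of the 3 KDEL receptors, which bind escaped chaperones in the Golgi and return them, Kdelr1 fell at 20 against 8 weeks. Of all genes, 14.7% were lower there. Kdelr1 read 9.34, 9.59, 9.32 and 10.83 at 4 weeks, 9.70 to 11.42 with a median of 10.82 at 8 weeks and 9.36 to 10.96 with a median of 10.58 at 12 weeks. It read 9.89, 10.36, 9.43, 9.60 and 9.94 at 16 weeks and 7.10, 8.78, 8.84, 9.37 and 9.85 at 20 weeks. All but replicate 5 of the 20-week arrays lay below every 8-week array. Kdelr1 fell by 1.95 (SE 0.40, adjusted p = 0.00303), 3.88-fold lower, and the change was -1.53 (adjusted p = 0.00588) without the 2 arrays. Kdelr2 read 7.43, 12.04, 11.24, 12.06 and 10.91 at 20 weeks, against 11.22 to 12.11 with a median of 11.59 at 8 weeks, with a change of -0.90 (SE 0.64, adjusted p = 0.289) that became -0.07 (adjusted p = 0.876). Kdelr3 read 3.48, 7.14, 6.28, 6.64 and 5.93 at 20 weeks, against 5.59 to 7.67 with a median of 6.55 at 8 weeks, with a change of -0.77 (SE 0.55, adjusted p = 0.285) that became -0.17 (adjusted p = 0.808). In Kdelr2 and Kdelr3 the ages overlapped with 20 weeks replicate 1 as the lowest array.

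Of the Sec61 channel, Sec61b, a small subunit, read 10.39, 12.93, 12.85, 12.93 and 12.58 at 20 weeks, against 12.60 to 14.50 with a median of 13.94 at 8 weeks, with replicates 2, 3 and 4 above the lowest 8-week array. It fell by 1.48 (SE 0.48, adjusted p = 0.0327). The pore subunit Sec61a1 read 9.90, 12.80, 12.72, 12.78 and 12.75 at 20 weeks, against 12.58 to 13.04 with a median of 12.89 at 8 weeks. Only 20 weeks replicate 1 lay below its 8-week range, and its change of -0.67 (SE 0.37, adjusted p = 0.173) became -0.09 (adjusted p = 0.668) without the 2 arrays.

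At 20 against 4 weeks, 3 members were lower and 0 higher, where 2.21% of genes were called, 1.31% lower and 0.897% higher: Uso1, Sec13 and Sec24d. The median member change was -0.81, and -0.17 without the 2 arrays. Without them Uso1, Sec13 and Gorasp2 were lower and Tmed10 higher, where 2.45% of genes were lower. With only the 9 arrays of these ages in the fit, 0 members were called by limma, where 0.0344% of genes were, and 4 had an unadjusted p under 0.05. The comparisons with 4 weeks and with 8 weeks share their 20-week arrays.

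Members of a family can be set side by side on the same array, which removes only what an array does to both alike. A narrower spread of the array, as on average at 20 weeks and most on its replicate 1, can shift bright and dim genes by different amounts and is not removed. Its part in these differences was not tested. The difference between 2 genes on an array is described here for pairs chosen after the values were seen, and was not tested. Uso1 minus Rab1a averaged -3.69 ± 0.49 at 20 weeks and -1.42 ± 0.21 at 8 weeks (SD, n = 5 and 6). Uso1 minus Golga2 averaged 3.69 ± 0.19 at 20 weeks and 5.66 ± 0.35 at 8 weeks, and Gorasp2 minus Golga2 averaged 5.54 ± 0.18 and 6.82 ± 0.31 at these ages. In these 3 pairs all 20-week arrays lay below all 8-week arrays. Golga2 itself lay close to background at 20 weeks, where its arrays read 2.25, 4.38, 4.06, 4.27 and 5.32 with a mean of 4.06, against a mean of 5.15 at 8 weeks.

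The pairs described numbered 14, and the gap between the ages varied in size. As 20 minus 8 weeks it was -0.12 for both Sec13 minus Sec31a and Kdelr2 minus Kdelr3. Without 20 weeks replicate 1 these were -0.64 and 0.10. It was -0.28 for Sec24d minus Sec24c, -0.35 for Mcfd2 minus Lman1, -0.81 for Sec61b minus Sec61a1 and -0.82 for Sar1a minus Sar1b. The remaining pairs had larger gaps. Copb1 minus Copb2 averaged -1.83 ± 0.60 at 20 weeks and -0.48 ± 0.50 at 8 weeks. Sec24c minus Sec24a averaged 0.82 ± 0.58 at 20 weeks and 1.87 ± 0.42 at 8 weeks. Sec24d minus Sec24a averaged -0.64 ± 0.92 at 20 weeks and 0.69 ± 0.53 at 8 weeks, and without 20 weeks replicate 1 its 20-week average was -1.04 ± 0.21. Kdelr1 was lower at 20 weeks relative to Kdelr2 and to Kdelr3 by 1.06 and 1.18 units, and without that array by 1.46 and 1.36 units. Such gaps depend on the probe set that stands for each gene. At 20 against 8 weeks the other own set of Kdelr2 differed by -3.21, where Kdelr1 changed by -1.95. The other own set of Copb2 differed by -2.03, where Copb1 changed by -2.05. For Rab1a the second set above background differed by -1.54, still less than the -3.07 of Uso1.

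**Figure D4:**
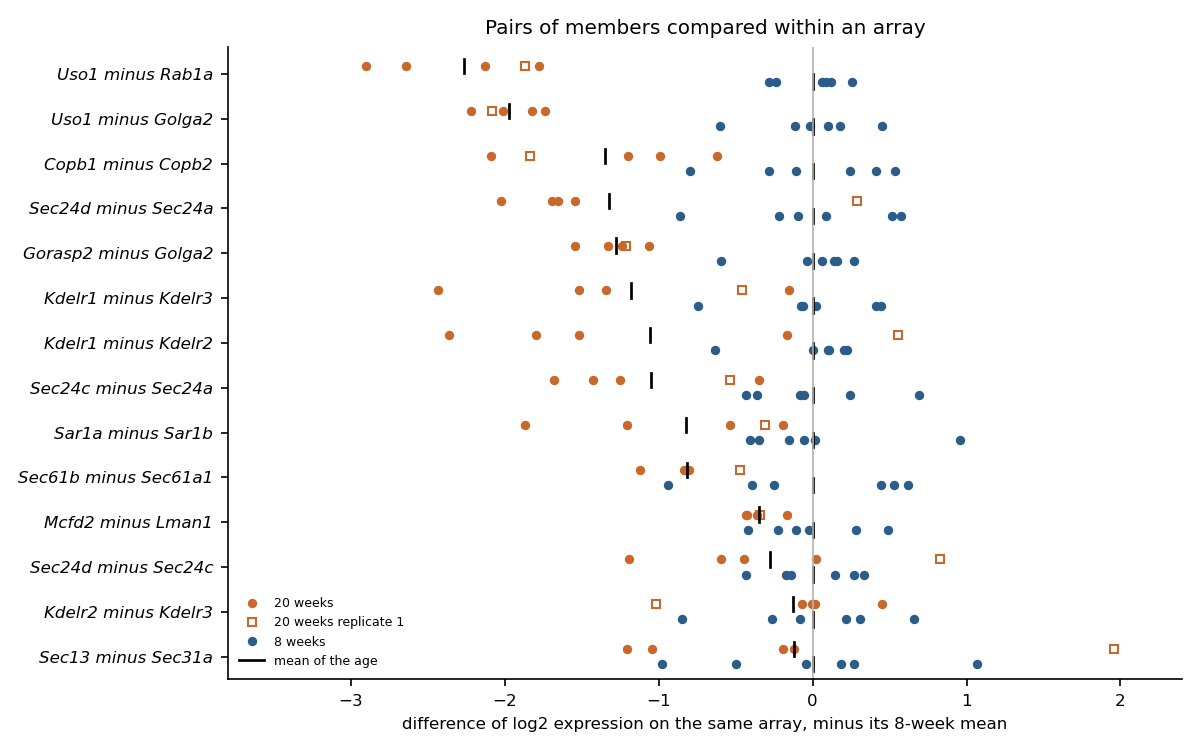
Difference in log2 expression between 2 members on the same array, at 20 weeks (orange, upper row of each pair) and 8 weeks (blue, lower row), with the 8-week mean of each pair set to 0 and the mean of each age as a black tick. The 20-week points of the Uso1 minus Golga2, Uso1 minus Rab1a and Gorasp2 minus Golga2 pairs lie apart from the 8-week points.

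Probe sets of the same gene did not always give the same change. Of 32 further probe sets that name 1 of 20 members alone, 24 lay above background at some age, and 23 of those were lower at 20 than at 8 weeks, 22 of them without 20 weeks replicate 1. These values were not tested. Of the 24, 19 were lower by more than the chosen probe set of the gene, 8 of them by over 1 unit more, with a median difference of -0.62 from the chosen set. Without 20 weeks replicate 1 the counts were 20 and 10 and the median was -0.79. The chosen set is by rule the brightest of its gene.

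Several gaps were large. Sec61a1 averaged 12.19 at 20 weeks and 12.86 at 8 weeks on its chosen probe set. On the own set that differed most it averaged 1.82, near background, at 20 weeks against 5.57 ± 1.60 at 8 weeks. Brighter own sets of Sec61a1 averaged 9.69 against 11.29 and 9.86 against 10.65 at these ages. Those differences were -0.90 and -0.42 without 20 weeks replicate 1. Kdelr2 averaged 10.74 at 20 weeks and 11.63 at 8 weeks on the chosen set, and 2.68 against 5.88 on the other. Copb2 averaged 9.16 at 20 weeks and 9.86 at 8 weeks on the chosen set, and 8.33 against 10.36 on the other. Tmed10, which barely moved on its chosen set, averaged 6.88 at 20 weeks and 10.16 at 8 weeks on 1 of 4 probe sets that also name another gene, while the other 3 differed by -0.42 to -0.49. For Gorasp2 the second set averaged 5.25 at 20 weeks and 8.58 at 8 weeks. The gap was small for Sec22b, whose second set averaged 8.12 at 20 weeks and 9.79 at 8 weeks, a difference 0.35 units below that of the chosen set with all arrays and 0.49 units above it without 20 weeks replicate 1. Uso1, Sec13, Sec24d, Mcfd2 and Kdelr1 have no second probe set of their own above background. With the mean of all own probe sets of a gene, 23 members were called lower at 20 against 8 weeks, all 16 above among them, where 17.9% of genes were lower. The 3′ minus 5′ actin difference was higher at 20 than at 8 weeks (3.62 ± 0.75 without 20 weeks replicate 1, against 2.63 ± 0.50), its part in the gaps between probe sets was not tested, and where on the transcript each probe set lies was not analysed here.

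**Figure D5:**
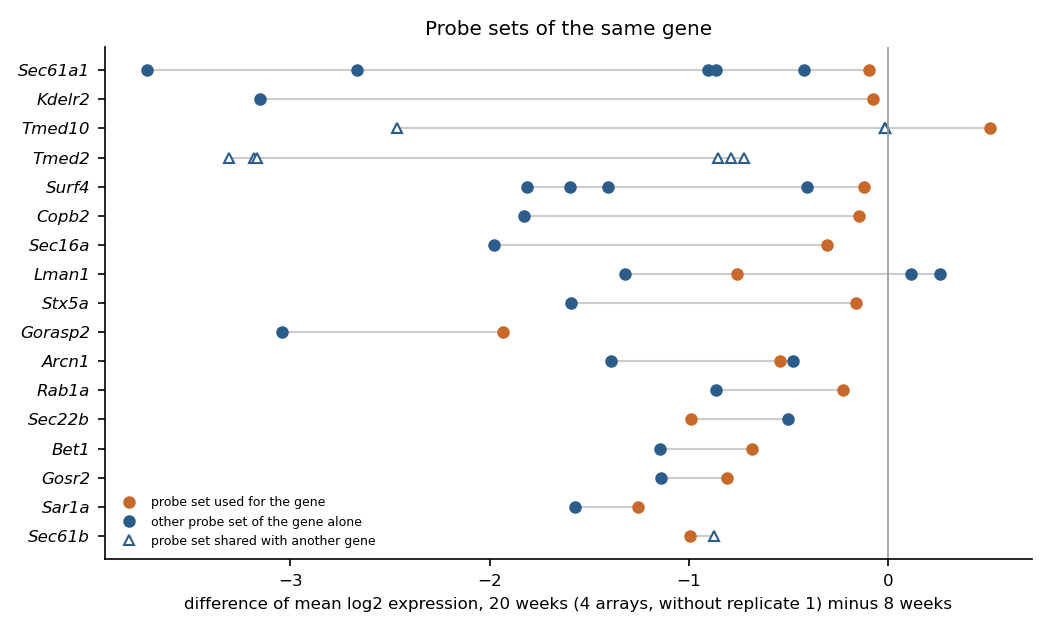
Difference in mean log2 expression between 20 weeks (4 arrays, without replicate 1) and 8 weeks (6 arrays) for every probe set above background of the members with more than 1 such set, joined by gene. The probe set used for the gene (orange) is at or near the right end of most lines, and the lines span from -3.72 to -0.09 for Sec61a1 and from -3.15 to -0.07 for Kdelr2.

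Other genes of the route, in lists chosen with earlier results of these data known, were also set against all genes tested, of which 14.7% were lower and 10.6% higher at 20 against 8 weeks. Of 9 other COPII and exit site genes tested, 4 were lower and 0 higher, with a median of -0.98. Of 11 other COPI and Arf genes 6 were lower, of 12 other p24 and cargo receptor genes 5, and of 11 other SNARE and fusion genes 6, with 0 higher in each and medians of -1.0, -0.92 and -0.98. Of 26 other tether, Golgi matrix and Rab genes 9 were lower and 1 higher, with a median of -0.85. Of 19 other translocon and signal peptide genes 12 were lower and 0 higher, with a median of -1.61. Without the 2 arrays the counts lower were 3, 5, 4, 4, 6 and 11 in that order, with 1 gene higher in each of the COPII, p24, SNARE and tether lists, where 10.2% of all genes were lower, and the medians lay between -1.03 and -0.44.

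The genes named here have the smallest F p of their lists and are not typical of them. Golga5, a Golgi tether, averaged 3.63 ± 0.85 at 20 weeks and 6.50 ± 0.75 at 8 weeks, and Cog6, of the conserved oligomeric Golgi complex, 5.45 ± 1.06 and 8.08 ± 0.34 at these ages. Ykt6, a SNARE, averaged 5.64 ± 0.77 at 20 weeks and 7.88 ± 0.76 at 8 weeks. Spcs3, a signal peptidase subunit, averaged 8.82 ± 1.21 at 20 weeks and 11.26 ± 0.29 at 8 weeks, and Srprb, of the receptor for the signal recognition particle, 7.67 ± 0.74 and 9.79 ± 0.47. Tmed3, a p24 protein, averaged 10.63 ± 1.14 at 20 weeks and 12.27 ± 0.34 at 8 weeks. Each of these fell by limma at 20 against 8 weeks, with adjusted p from 0.000688 to 0.00402. Sec16b, the second exit site scaffold, fell at 20 against 8 weeks by 0.91 (SE 0.27, adjusted p = 0.024) and rose at 8 against 4 weeks by 1.25 (SE 0.29, adjusted p = 0.0303).

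Markers of the cells in the gland moved in their own ways. The 7 acinar markers, of which Chrm3 was near background, had array means of 9.14 to 11.35 at 20 weeks and 10.75 to 11.32 at 8 weeks, and none of the 6 tested was called at 20 against 8 weeks by limma, with a median change of -0.52. With 24 arrays 1 of the 6 was called lower and the median was -0.08. Without 20 weeks replicate 1 the 20-week means started at 10.73. The 8 plasma cell markers, with Mzb1, Tnfrsf17, Prdm1 and Pou2af1 near background, had means of 4.76 to 6.56 at 20 weeks and 5.13 to 5.74 at 8 weeks, and 2 of 4 tested, Igha and Jchain, were higher at 20 weeks, by 1.96 (SE 0.56, adjusted p = 0.0207) and 2.79 (SE 0.60, adjusted p = 0.00445). Sdc1 and Derl3, also tested, changed by -0.31 (adjusted p = 0.596) and -0.36 (adjusted p = 0.714), short of the threshold. The median change of the 4 tested was 0.82, and 1.37 with 24 arrays. The 8 macrophage markers had means of 5.62 to 8.89 at 20 weeks and 7.69 to 8.68 at 8 weeks, with C1qa called lower and a median change of -0.24. With 24 arrays 0 of the 8 were lower and 1 was higher, with a median of 0.25. At 8 against 4 weeks 5 of the 8 macrophage markers were already called higher, with a median change of 2.45, where 1.36% of genes were called. Igha was called higher there too, by 3.18 (SE 0.60, adjusted p = 0.00666 by limma). Of 7 T and B cell markers 5 were near background, Cd3e among them, with means of 3.24 to 3.64 at 20 weeks and 3.06 to 3.22 at 8 weeks. All 6 skeletal muscle markers and 3 of 4 adipose markers were near background. The part of the acinar, plasma cell, macrophage and lymphocyte markers in the results was not tested. Salivary gland markers varied within ages, from 5.88 to 9.18 at 20 weeks and 4.90 to 11.41 at 8 weeks, and with their mean and that of the adipose markers as covariates 8 of the 16 members remained called, where 9.05% of genes were lower.

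Promoter sequence was searched for all members and is shown for 4. The windows searched ran from 250 bases before to 50 bases after the RefSeq gene start of GRCm38.p6, and 32 of the 37 members had one. Members were searched on both strands for letters that transcription factors of the unfolded protein response and the cAMP-response element family are known to bind. TGACGTGG, the core of the element bound by XBP1 and ATF6, occurred in 6 of the 32 (18.75%) and in 0.714% of 27025 genes: Copb1, Copb2, Sec23a, Sec24d, Stx5a and Kdelr3. TGACGT, which it contains, occurred in 15 members, or 46.9%, and in 8.37% of genes. CCACG, which lies within it on the other strand, occurred in 22 members, or 68.75%, and in 35.5% of genes. TACGTG occurred in 5 members and 3.67% of genes, CACGTG in 4 members and 8.09% of genes, TGACGTCA in 2 members and 2.03% of genes, and CCAAT in 11 members and 41.1% of genes. The longer endoplasmic reticulum stress elements ERSE and ERSE-II, with exact letters, occurred in 0 members, and in 0.137% and 0.0444% of genes. These are matches of letters and not measured sites. Of the 6 members with TGACGTGG all were tested and 2 fell at 20 against 8 weeks, and of the 24 tested without it 13 fell. Of all genes tested, 14.7% were lower there. A link between these letters and the changes was not tested.

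The 250 bases before the start are printed 5′ to 3′ on the gene's strand. Sec24d, Copb1 and Kdelr3 are shown because TGACGTGG, in capitals and seen as CCACGTCA where it lies on the other strand, begins 26, 28 and 30 bases before their starts, and Sec24d and Copb1 fell at 20 against 8 weeks while Kdelr3 was not called. Uso1 is shown as the member that changed most, with its CACGTG and a TACGTG on the other strand (CACGTA) in capitals. The windows lie at chr3:123267246-123267495 on the plus strand, chr7:114254681-114254930 on the minus strand, chr15:79516158-79516407 on the plus strand and, for Uso1, chr5:92137688-92137937 on the plus strand.
Sec24d: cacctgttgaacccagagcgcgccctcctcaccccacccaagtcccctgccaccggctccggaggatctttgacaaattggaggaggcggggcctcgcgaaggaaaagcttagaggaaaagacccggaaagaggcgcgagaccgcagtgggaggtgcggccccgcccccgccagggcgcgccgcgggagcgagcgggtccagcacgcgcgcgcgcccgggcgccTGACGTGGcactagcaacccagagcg
Copb1: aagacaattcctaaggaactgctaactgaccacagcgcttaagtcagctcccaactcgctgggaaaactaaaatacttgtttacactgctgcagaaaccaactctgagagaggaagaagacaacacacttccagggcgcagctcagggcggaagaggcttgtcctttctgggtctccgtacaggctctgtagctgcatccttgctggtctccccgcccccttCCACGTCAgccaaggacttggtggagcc
Kdelr3: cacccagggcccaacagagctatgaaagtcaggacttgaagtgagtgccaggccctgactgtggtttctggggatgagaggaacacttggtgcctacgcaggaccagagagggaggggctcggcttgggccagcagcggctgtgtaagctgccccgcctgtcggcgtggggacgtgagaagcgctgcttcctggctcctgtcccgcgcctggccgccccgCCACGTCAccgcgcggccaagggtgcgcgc
Uso1: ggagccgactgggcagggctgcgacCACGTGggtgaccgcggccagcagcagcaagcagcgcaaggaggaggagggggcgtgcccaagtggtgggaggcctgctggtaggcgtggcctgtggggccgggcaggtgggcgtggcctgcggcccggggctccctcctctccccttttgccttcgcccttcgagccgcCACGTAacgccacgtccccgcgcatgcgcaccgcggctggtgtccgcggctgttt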

How the data were processed

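RNA of 26 lacrimal gland samples was measured as biotin-labelled cRNA on Affymetrix mouse arrays, per the labels' protocols. The authors deposited 1 table of log2 expression for 45101 probe sets. RMA and GCRMA are named in the submitters' processing notes, with no role or version, so which of them made the values is not known here. Both summarise several probes into 1 value per set and differ in how they treat background, which bears most on low values. The deposited log2 values were used as given.

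Gene names came from the platform annotation: 34958 probe sets name 1 gene, 932 several, and 9211 were left out as unnamed. Each gene was represented by the probe set with the highest mean. A mean per age was estimated by limma 3.58.1 under R 4.3.3 (lmFit and eBayes), with an F test and 6 contrasts, two-sided, Benjamini-Hochberg adjusted over 12377 genes. The script was tested on simulated data with 200 changed genes. Differences between members on the same array were described and not tested. Arrays give no read depth, and their number limits the precision.

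The members, lists, comparisons and pairs were chosen with earlier results of these data known. Values are given in detail for the 12 members with the largest F, the 3 with the smallest, paralogue families, and members singled out after their values were seen. Of each other list, up to 3 genes with the smallest F p could be named. Alternatives were quantile normalization, median centring, other filters, other choices of probe set, eBayes with trend, array weights, the replicate number as a block, the array spread or actin difference as covariate, only the compared arrays, and leaving out arrays. The covariates for salivary and adipose markers and the pairs without 20 weeks replicate 1 were added after seeing the data. Promoter windows are RefSeq's, of GRCm38.p6.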

Additional observations from a re-analysis of the deposited data

Results flagged for a closer look

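In 35 of 180 groups of arrays of 1 age, counting each member and the member mean, 1 array lay far from the others by Dixon's test at the 95% level. Chance flags about 1 in 20 groups. Of the 35, 20 were 20 weeks replicate 1, always as the lowest array, 7 were 16 weeks replicate 4, 5 were 12 weeks replicate 1, 2 were 8 weeks replicate 1 and 1 was 4 weeks replicate 4.

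On 20 weeks replicate 1 the member mean was 6.21. Of the coat genes, Copa at 6.99, Copb1 at 4.61, Cope at 6.58, Arcn1 at 8.26, Sec16a at 3.46, Sec23b at 7.62, Sec24a at 4.28, Sec31a at 3.69 and Sar1b at 7.60 stood apart on that array. Of the genes of fusion, cargo, retrieval and the channel, so did Bet1 at 3.27, Gosr2 at 4.73, Tmed10 at 7.20, Surf4 at 8.77, Lman1 at 7.30, Mcfd2 at 8.31, Kdelr2 at 7.43, Rab1a at 9.12, Sec61a1 at 9.90 and Sec61b at 10.39.

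On 16 weeks replicate 4 the genes apart were Sec24a at 6.78, Sec24c at 5.47, Gorasp2 at 8.07, Bet1 at 4.40, Lman1 at 7.27, Rab1a at 4.62 and Sec61b at 10.82. On 12 weeks replicate 1 they were Cope at 9.63, Bet1 at 5.91, Mcfd2 at 11.82, Kdelr1 at 9.36 and Sec61b at 12.66. The SD of all log2 values on that array was 1.95, the lowest of its age, against 2.05 to 2.27 on the other 12-week arrays. It lay within the range of the arrays at other ages. On 8 weeks replicate 1 they were Sec23a at 4.88 and Sec24b at 4.57. Cope was at 10.45 on 4 weeks replicate 4. The cause of these values was not tested.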

How the results depend on the processing

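In brackets are all genes called under that setting, or for 20 against 8 weeks all genes called lower. The count of members lower at 20 against 8 weeks (16) was 7 with the array spread as a covariate (4.49%), 7 with the actin difference (4.15%), 6 with only the compared arrays (7.61%) and 8 with the salivary and adipose marker means (9.05%), and the median (-1.21) was -0.51 after quantile normalization and -0.20 with the array spread. The count over the 5 ages (8, 14.9%) was 13 after quantile normalization (17%), 14 with each gene's probe sets averaged (19.1%), 13 without _x_at and _s_at probe sets (16.7%), 27 with array weights (65.9%), 13 without the 2 arrays (21.0%) and 5 with the marker means (6.80%). At 20 against 4 weeks (3, 2.21%) it was 6 after quantile normalization (6.88%), 5 without _x_at and _s_at probe sets (2.61%), 15 with array weights (28.1%), 7 with the array spread (8.81%), 1 with the actin difference (1.42%) and 0 with only the compared arrays (0.034%), where 4 had an unadjusted p under 0.05 in limma. At 16 against 12 weeks (1, 2.98%) it was 5 after quantile normalization (4.14%), 7 with array weights (22.6%), 4 with the array spread (6.11%), 2 without the 2 arrays (4.09%), and 0 by limma with no filter (1.10%), with the actin difference (0.937%) or with the marker means (0.048%). At 8 against 4 weeks (0, 1.36%) it was 14 with array weights (36.8%) and 2 without the 2 arrays (4.93%), and at 20 against 16 weeks (0, 0.0162%) it was 2 with array weights (2.01%). The cause of these shifts was not tested.

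Leaving out 1 array in turn gave counts of 7 to 12 over the 5 ages, 0 to 1 at 8 against 4 weeks, 0 to 0 at 12 against 8 weeks, 0 to 5 at 16 against 12 weeks, 0 to 0 at 20 against 16 weeks, 1 to 4 at 20 against 4 weeks and 7 to 22 at 20 against 8 weeks. The member medians were 0.24 to 0.63, -0.04 to 0.20, -0.60 to -0.28, -1.04 to -0.23, -1.0 to -0.17 and -1.49 to -0.64 for the contrasts in that order. Over the same refits the number of all genes called moved too. It ran from 69 to 886 at 16 against 12 weeks and from 71 to 729 at 20 against 4 weeks. At 20 against 8 weeks the member count was 8, 8 and 10 without 8 weeks replicate 1, 4 and 5, and 7 without 20 weeks replicate 1. Of all genes, 8.3%, 9.1%, 11.1% and 7.82% were lower in these fits. At 20 against 4 weeks the member count was 1 without 4 weeks replicate 1, 2 or 4, where 182, 71 and 75 genes were called, against 273 with all arrays. At 16 against 12 weeks it was 0 without 12 weeks replicate 3, 4, 5 or 6 or 16 weeks replicate 1, 3 or 4, where 69 to 170 genes were called. It was 3 there without 12 weeks replicate 1 (886 of 12343 genes) and 5 without 20 weeks replicate 1 (871 of 12322), against 369 of 12377 with all arrays. At 8 against 4 weeks the member count was 1 without 20 weeks replicate 1. The share of all genes called is not given here for that fit, nor for the fit with 22 members at 20 against 8 weeks.

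Some members changed sign at 20 against 8 weeks. With the array spread as a covariate the changes were 0.10 for Copb2, 0.37 for Sec24a, 0.053 for Stx5a, 0.68 for Tmed10, 0.12 for Surf4, 0.28 for Kdelr2, 0.28 for Kdelr3, 0.72 for Rab1a and 0.090 for Sec61a1. After quantile normalization they were 0.021 for Copb2, 0.67 for Tmed10 and 0.15 for Surf4, and with array weights 0.041 for Sec24a, 0.57 for Tmed10 and 0.013 for Kdelr3. With the actin difference they were 0.17 for Tmed10 and 0.26 for Rab1a. Without 20 weeks replicate 1, and without the 2 arrays, they were 0.018 for Sec24a and 0.51 for Tmed10, and Kdelr2 minus Kdelr3 was 0.10 without 20 weeks replicate 1. Leaving out 1 array in turn gave -0.82 to 0.018 for Sec24a, -0.21 to 0.020 for Sec24b, above 0 without 8 weeks replicate 1, and -0.26 to 0.51 for Tmed10, above 0 without 8 weeks replicate 1 or 20 weeks replicate 1, and Sec23a was at -0.00937 after median centring.

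Whether replicate numbers pair the arrays was not settled, as pairs of different numbers were not set beside those of the same number. Over 47 pairs of same-numbered arrays the correlation of deviations ran from -0.477 to 0.489, with a median of -0.0804 and 14 pairs over 0.1. With the replicate block the count was 13 at 20 against 8 weeks and 7 over the 5 ages. The share of all genes called with the block is not given here, so these counts cannot be read against it. Signal near background limits Tmed2, Sec24b, Gosr1 and Sec23a.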
